A study of Saccharomyces cerevisiae with 11 samples.

Results

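The subject is the earliest sampling of yeast under arsenate in phosphate-poor medium: arsenate cultures against control cultures after 4 h at low phosphate. It comprises 2 of the 11 arrays of the series, taken by their titles. Saccharomyces cerevisiae S288C, a laboratory strain, grew in a yeast nitrogen base medium with 2% sucrose and 100 μM phosphate. Arsenate was added to a final 2 μM, and the control received sodium chloride for ion balance, listed as 200 mM without saying whether that was a stock or a final concentration. The comparison therefore sets arsenate against sodium chloride, and an effect of the salt cannot be told apart from one of arsenate in any ratio below. The same treatment ran to 8 h and 10 h at low phosphate (2 arrays each) and was repeated at 1 mM phosphate, called high phosphate, with 2 arrays at 4 h. On every array cDNA of the arsenate culture carried Cy5 and cDNA of the control carried Cy3. With no dye swap, a fixed preference of a gene for either dye is part of each 4 h ratio, and it cancels where 4 h is set against 8 h or 10 h. The labels do not say that replicates were separate cultures, so p-values reflect nothing beyond the spread of these arrays, which may be technical. RNA came from whole cultures, so fewer cells that express a gene and less of its RNA in each cell cannot be told apart.

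Arsenate resembles phosphate and enters yeast through phosphate carriers. Inside, Arr2 reduces it to arsenite, Arr3 exports arsenite, and Arr1 is the transcription factor that switches both genes on. Yeast also binds arsenite to glutathione, made from cysteine and so from assimilated sulfate, and Ycf1 moves such conjugates into the vacuole. When phosphate is scarce, the factor Pho4 activates the PHO regulon of phosphatases, phosphate carriers and polyphosphate enzymes. Damaged proteins call up chaperones through the factor Hsf1, and many other stresses act through Msn2 and Msn4. Growing cells devote much of their transcription to ribosomes, and transcripts for making them usually move opposite to the stress genes.

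Values are log2 ratios of arsenate over control after spots of a gene were averaged and each array was centred on its gene median, so 1 is a doubling. The first 4 h array held 5204 genes and the second 4888, with 4826 genes on both and 440 on only 1 of them. As deposited, their gene medians were -0.07 and 0.18. Blank spots made up 20.5% of the first array and 25.9% of the second. The ratios of the arrays correlated across 4814 genes with Pearson's r of 0.771 and Spearman's rho of 0.722, which describes the arrays, since genes are not independent replicates. A gene differed between the arrays by a median of 0.13, and 53 genes differed by more than 1. Precision is limited by having 2 arrays, and signal over background is unknown.

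Of 4814 genes tested with limma against a ratio of 0, 880 were higher (18.3%) and 846 lower (17.6%) with arsenate at an adjusted p under 0.05, together 35.9%. With the arrays left as deposited the balance was 764 higher and 502 lower, so that 60.3% of the calls were higher, against 51.0% after centring. Most changes were small: 24 of the higher and 73 of the lower genes changed at least 2-fold, and 4 and 8 of them at least 4-fold. No called gene had opposite signs on the arrays, which the test makes unlikely, since it uses the same arrays. The smallest called mean was 0.20 in size. Counts rested on all 6 arrays at low phosphate, which share the estimate of spread. With the first 4 h array left out there were 580 higher and 628 lower genes, and with the second left out 450 and 567, so which direction held more genes turned.

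**Figure D1:**
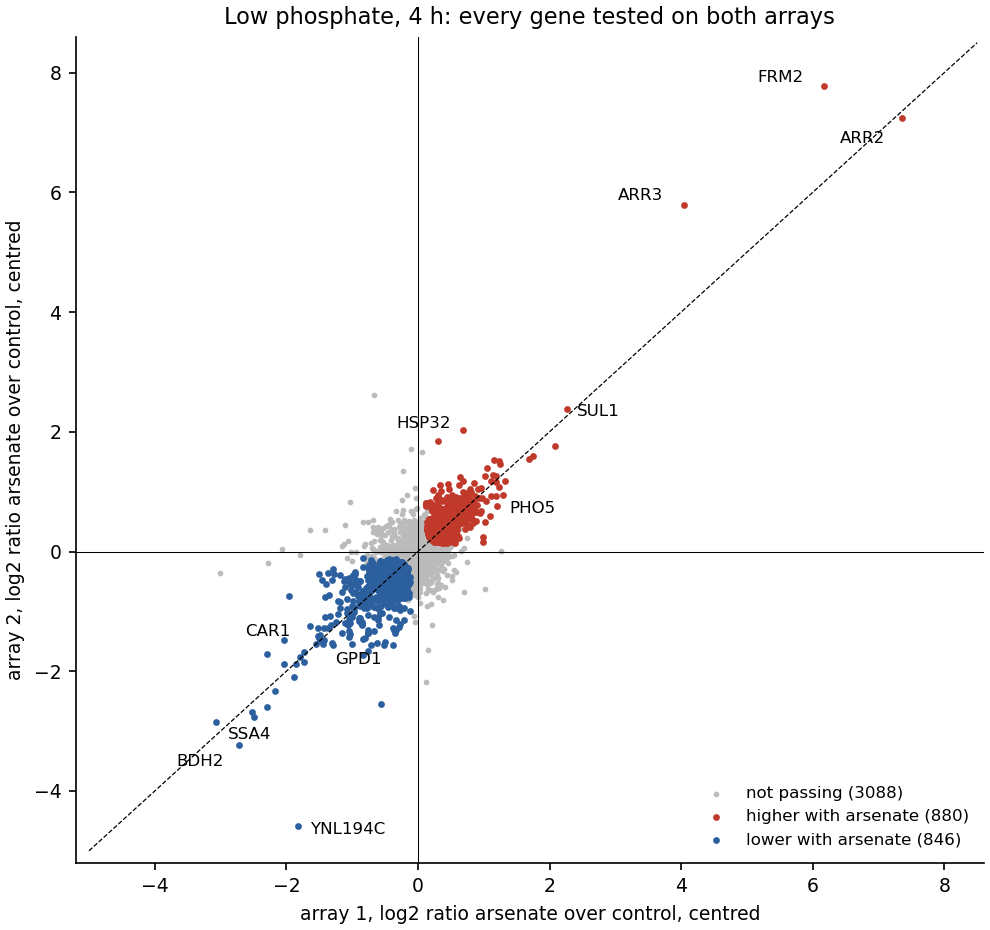
Log2 ratio of arsenate over control on array 1 (horizontal) and array 2 (vertical) at 4 h, low phosphate, 1 point per gene tested, with the dashed line marking equal values. ARR2, FRM2 and ARR3 stand far above all other genes on both arrays, and the genes more than 4-fold lower, such as SSA4 and BDH2, lie along the line except for YNL194C.

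ARR2, FRM2 and ARR3 had the 3 highest mean ratios of all genes tested. ARR2, the arsenate reductase, stood at 7.36 on the first array and 7.24 on the second, a 158-fold difference in the mean (7.30, SE 0.13, adjusted p = 7.21e-07). ARR3, the arsenite exporter, stood at 4.05 and 5.80 (mean 4.92 ± 1.24, SD, n = 2; limma adjusted p = 0.00213). Both arrays were high for each gene, but ARR3 differed between them by more than ARR2 did. A second ARR3 spot had a value on the second array alone; on the spot that both arrays measured, ARR3 stood at 4.05 and 5.59. FRM2, a nitroreductase-like protein, was at 6.17 and 7.77 (mean 6.97, adjusted p = 4.34e-05). Its spots read 6.16 and 6.17 on the first array and 6.73 and 8.81 on the second.

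ARR1 was higher by far less, with 0.46 and 0.41 (mean 0.43, SE 0.07, adjusted p = 0.00355). Its spots read 0.48 and 0.44 on the first array and 0.67 and 0.15 on the second. YCF1, the vacuolar pump for glutathione conjugates, had 0.10 and -0.09 (adjusted p = 0.983), and FPS1, the glycerol channel that arsenite can pass, had 0.05 and -0.14 (adjusted p = 0.665). Their ratios lay on both sides of 0. Among the other factors of the AP-1-like family to which ARR1 belongs, YAP6 rose by 0.77 and YAP7 by 0.40, while CAD1, known from cadmium tolerance, fell by 0.90. The call of YAP7 was lost without the first array (0.27, adjusted p = 0.0981, with 0.00599 to 0.0981 over its alternatives). YAP1, the oxidative stress regulator, had 0.10 and 0.16 (adjusted p = 0.164). HBN1, the paralog of FRM2, went the other way, with -0.36 and -0.67 (mean -0.51, adjusted p = 0.00671), its call being lost without the second array (adjusted p = 0.0523, the highest over its alternatives), and was lower at 4 h than at 8 h (0.65 and 0.57) and at 10 h (0.86 and 1.02).

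ARR2 was lower at 4 h than at 8 h by 0.74 (SE 0.19, adjusted p = 0.0187), with 8.10 and 7.99 at 8 h, and higher at 4 h than at 10 h by 1.82 (adjusted p = 0.000623), with 5.18 and 5.79 at 10 h. FRM2 was 2.04 higher at 4 h than at 10 h (adjusted p = 0.0131), and its 4 h minus 8 h difference was -0.62 (SE 0.48, adjusted p = 0.324). For ARR3 neither difference passed, at -1.58 against 8 h (adjusted p = 0.195) and 1.08 against 10 h (adjusted p = 0.36). On the high phosphate arrays of 4 h, which are a separate table on another array design and were not tested against low phosphate, ARR2 read 3.52 and 3.47, FRM2 3.49 and 4.13, and ARR3 3.43 and 0.57.

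Genes of sulfur uptake and assimilation rose. Of 7 permeases tested, 4 were higher and 0 lower, and of 21 enzymes 14 were higher and 0 lower (medians 0.44 and 0.33), against 18.3% higher, 17.6% lower and a median of -0.00 over all genes tested. SUL1, the high-affinity sulfate permease, stood at 2.26 and 2.38 (mean 2.32, SE 0.13, adjusted p = 8.82e-05), a 4.99-fold difference, and its paralog SUL2 at 0.71 and 0.92. MUP1, the high-affinity methionine permease, had 1.02 and 1.26, and the glutathione and peptide transporter OPT1 had 0.33 and 0.55. All of these were above 0 on both arrays, and OPT1 alone among them lost its call when a 4 h array, the second, was left out (adjusted p = 0.143, the highest over its alternatives). YCT1, a cysteine transporter, read 2.04 and AGP3 read 1.58, each on the second array alone, and were not tested.

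Among the enzymes, the sulfatase BDS1 rose by 1.21 (1.15 and 1.28), the phosphatase MET22, which degrades the sulfate activation by-product PAP, by 0.79, the cystathionine beta-lyase STR3 by 0.74, the sulfite reductase subunit MET5 by 0.64 and the APS kinase MET14 by 0.55. MET8, which helps make the siroheme of sulfite reductase, had 0.18 and 0.83 (mean 0.51), and its call was lost in 6 of the alternatives (adjusted p = 0.29 without the second array, with 0.0019 to 0.29 over them). The ATP sulfurylase MET3 had 0.43 and 0.44 but missed the threshold (adjusted p = 0.0519, with 0.0125 to 0.154 over its alternatives). Of the 21 enzymes, 14 were lower at 4 h than at 8 h, where their median was 0.81, against 26.6% of all genes, and 2 were higher. For SUL1 the 4 h minus 8 h difference was 0.23 and did not pass (SE 0.19, adjusted p = 0.361). With either 4 h array left out, 8 of the 21 enzymes were higher.

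Of 6 regulators of the sulfur genes tested, 0 were higher and 2 lower (33.3%), against 18.3% and 17.6% of all genes tested. So few members cannot set the list apart from those shares. The lower ones were CBF1, a DNA-binding factor, with -0.53 and -0.77, and MET30, the ubiquitin ligase subunit that restrains Met4, with -0.43 and -0.38. MET4 itself, the activator, had -0.06 and 0.01 (adjusted p = 0.818). In the glutathione list 6 of 22 genes were higher (27.3%) and 3 lower (13.6%). GSH1, which makes the first step of glutathione synthesis, had 0.52 and 0.30 (mean 0.41, adjusted p = 0.0205, and 0.135 without the first array, within 0.00624 to 0.135 over its alternatives). The glutaredoxin GRX8 rose by 0.93, the glutathione exchangers GEX1 by 0.60 and GEX2 by 0.56, and URE2, a nitrogen regulator with glutathione peroxidase activity, by 0.50, while the transferase-like GTT3 fell by 0.63. GEX1 had 0.36 without the second array (adjusted p = 0.144, with 0.00163 to 0.144 over its alternatives). GEX1 and GEX2 are near-identical copies, so their spots may share signal, which was not tested.

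Chaperones of the cytosol were lower with arsenate. Of 31 tested, 0 were higher and 17 lower (54.8%), with a median of -0.31, against 18.3% higher and 17.6% lower over all genes tested. SSA4, the stress-inducible Hsp70, stood at -3.07 and -2.85 (mean -2.96, SE 0.08, adjusted p = 6.1e-06), so arsenate cultures held 7.8-fold less of it. BTN2, which sorts aggregated proteins, had -2.49 and -2.76, and the small heat shock protein HSP42 had -2.53 and -2.69. HSP104, the disaggregase, had -2.30 and -1.72. FES1, a nucleotide exchange factor for Hsp70, fell by 1.45, and CUR1, the paralog of BTN2, fell by 1.44. The arrays agreed on each of these to within 0.6, and no value was near 0. The transcript of the regulator HSF1 itself had -0.11 and -0.18 (adjusted p = 0.155).

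Many of these values were lower at 4 h than later. Of the 31 cytosolic chaperones, 13 were lower at 4 h and also lower than at 8 h and at 10 h, against 5.86% of all genes tested. At 8 h the list's median was -0.06 and at 10 h 0.07. SSA4 had -0.83 and -0.68 at 8 h and -0.66 and -0.67 at 10 h. BTN2 had 0.25 and 0.18 at 8 h and 0.19 and 0.32 at 10 h. HSP26, a small heat shock protein, was an exception, with -0.57 and -0.90 after 4 h. Its lowest values came later, -3.56 and -3.57 at 8 h, so that 4 h was 2.83 above 8 h (adjusted p = 4.41e-05). The 10 h arrays read -0.91 and -0.86.

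The mitochondrial disaggregase HSP78 followed the cytosolic pattern, with -2.29 and -2.60 at 4 h (mean -2.45, adjusted p = 3.36e-05), -0.51 and -0.72 at 8 h and 0.35 and 0.17 at 10 h. MDJ1, the mitochondrial J-protein, fell by 0.63. Among the lists below, 30.8% of the mitochondrial chaperones, 22.2% of those of the endoplasmic reticulum and 15.4% of the proteasome genes were lower. Higher were 15.4%, 5.56% and 5.13% of them. The shares over all genes tested were 17.6% lower and 18.3% higher, so the proteasome list had a smaller share lower than all genes. Over the 13 mitochondrial chaperones 4 were lower and 2 higher, with 3 and 1 left without the first 4 h array and 2 and 1 without the second. The Hsp70 SSC1 had -0.32 and -0.23, TIM44 0.47 and 0.35 and the exchange factor MGE1 0.23 and 0.42. Their calls were lost without either array for SSC1, without the first for TIM44 and without the second for MGE1 (highest adjusted p over their alternatives 0.203, 0.0552 and 0.157). Of 18 chaperones of the endoplasmic reticulum 4 were lower (2 or 3 without the first or second 4 h array) and 1 higher, SIL1, the exchange factor of KAR2, which rose by 0.44. The ligase HRD1 had -0.96 and -0.35 and the Hsp70 KAR2 -0.47 and -0.26, and both calls were lost without the first array (highest adjusted p over their alternatives 0.164 and 0.123). RPN4, which activates proteasome genes, had -0.89 and -0.90 and was lower than at both later times, whereas 6 of 39 genes on the proteasome list, RPN4 included, were lower and 2 higher, with 2 or 4 lower and 0 higher when the first or second 4 h array was left out.

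The general stress genes under Msn2 and Msn4 were lower too, but not only at 4 h. Of 25 tested, 2 were higher (8%) and 16 lower (64%), beside 18.3% and 17.6% of all genes tested. Their median was -0.73, against a median of -0.98 at 8 h and 0.03 at 10 h. TMA10, found with ribosomes, had -2.04 and -1.47, the catalase CTT1 -1.04 and -1.43, the membrane-binding HSP12 -1.21 and -0.83, and the nicotinamidase PNC1 -1.08 and -1.03. The aldehyde dehydrogenase ALD4 fell by 1.21, the wall protein SPI1 by 1.12 and RGI1, needed for respiratory growth, by 1.05. Each of these was lower on both arrays. CTT1 was even lower at 8 h, by 0.52 (adjusted p = 0.03), and near 0 at 10 h, with -0.11 and 0.03. The regulators differed from each other, since MSN2 fell by 0.37 and MSN4 rose by 0.34; MSN2 missed the threshold without the second array (adjusted p = 0.193, with 0.0144 to 0.193 over its alternatives) and MSN4 without the first (adjusted p = 0.0611, with 0.00523 to 0.0611).

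Enzymes of trehalose and glycogen, reserve sugars laid down under stress, fell with them: 0 of 19 were higher and 11 lower, with a median of -0.56. The shares over all genes tested were 18.3% higher and 17.6% lower. The glycogen synthase GSY1 had -1.03 and -1.19, the branching enzyme GLC3 -0.89 and -1.11, the phosphoglucomutase PGM2 -0.86 and -0.87 and the trehalose synthase subunit TSL1 -0.98 and -0.70. These values were intermediate, since the list's median was -1.10 at 8 h and 0.30 at 10 h. At 4 h 11 of the 19 were higher than at 8 h, against 16.5% of all genes. GLK1, the glucokinase, fell by 1.42 in the same direction, and HXK1, a hexokinase, by 0.81.

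Because the control received sodium chloride, genes of the sodium and osmotic response were examined apart. Of 31 tested, 4 were higher (12.9%) and 8 lower (25.8%), with a median of -0.13. Over all genes tested 18.3% were higher and 17.6% lower. GPD1, which makes glycerol 3-phosphate for the osmolyte glycerol, had -1.44 and -1.54 (mean -1.49, SE 0.07, adjusted p = 4.45e-05), and GPP2, the phosphatase of the next step, had -1.07 and -1.20. The sodium pumps ENA1 (-0.37 and -0.48) and ENA2 (-0.48 and -0.34) were lower by less than GPD1, and as tandem copies they may share signal. STL1, the glycerol importer, read -4.64 and -1.63 but lacked the values at other times that the test needed. RCN2, a calcineurin regulator, fell by 0.51 and the dihydroxyacetone kinase DAK1 by 0.45. HAL1, a salt tolerance gene, had -0.38 and -0.55, and the phosphatase PTP2 0.20 and 0.75. Both calls were lost without the second array (highest adjusted p over their alternatives 0.0748 and 0.21). The paralogs of the glycerol enzymes did not follow them: GPD2 had 0.53 and 0.15, and GPP1 0.32 and 0.19. Each was called higher, but not without the first array, where GPD2 had 0.15 and GPP1 0.19, and ENA2 lost its call there too (-0.34). Other alternatives also lost these calls. For GPD2 they included array weights (limma adjusted p = 0.0594) and genes on at least 1 array of each time (0.0527). For GPP1 they included values as deposited (limma adjusted p = 0.0567). With the first or second 4 h array left out, 3 or 1 of the list were higher and 6 or 7 lower.

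Of this list 6 members were lower at 4 h and lower than at both later times, against 5.86% of all genes. GPD1 had -0.21 and -0.31 at 8 h and 0.44 and 0.31 at 10 h, and ENA1 0.18 and 0.14 at 8 h and 0.53 and 0.58 at 10 h. On the high phosphate arrays of 4 h, whose controls also received sodium chloride per the labels, GPD1 read 0.26 and 0.23, GPP2 0.08 and 0.11, and ENA1 0.22 and 0.23. SSA4 read -0.15 and -0.14 there, HSP42 0.21 and 0.11, and BTN2 0.09 and 0.08. The medians of the high phosphate arrays were 0.14 for the sodium and osmotic list, 0.19 for the cytosolic chaperones and 0.14 for the general stress genes, beside -0.13, -0.31 and -0.73 at low phosphate. The part of the salt in the low phosphate values was not tested.

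**Figure D2:**
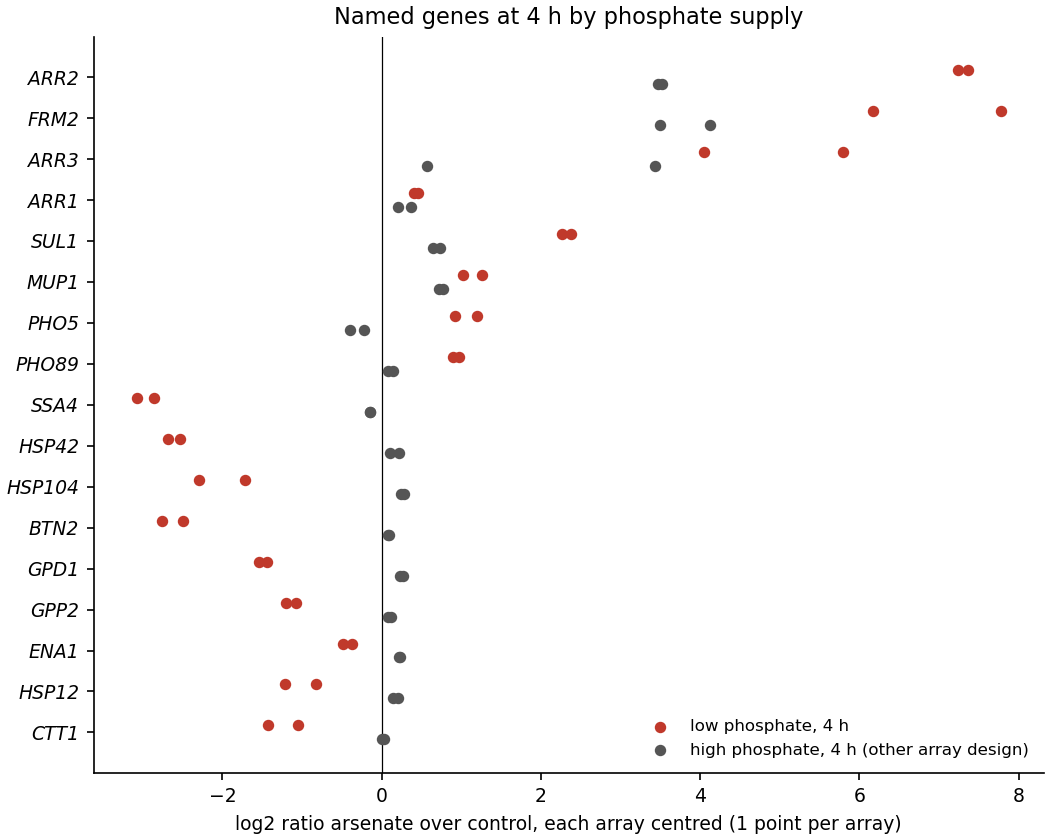
Log2 ratio of arsenate over control at 4 h for 17 named genes, 1 point per array, low phosphate in red above high phosphate in grey; the tables differ in array design and were not tested against each other. ARR2 and FRM2 are high in both, and SSA4, HSP42, BTN2 and GPD1 are below -1 at low phosphate and within 0.3 of 0 at high phosphate.

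More PHO regulon genes were higher than lower at 4 h, unlike at 8 h. Of 21 members tested, 11 were higher (52.4%) and 3 lower (14.3%), against 18.3% and 17.6% of all genes tested. Their median was 0.25, against medians of -1.02 at 8 h and -0.09 at 10 h. PHO5, the secreted acid phosphatase, had 1.19 and 0.93 (mean 1.06, SE 0.09, adjusted p = 0.00053), its paralogs PHO11 0.60 and 0.54 and PHO12 0.56 and 0.39, and PHM6, a vacuolar protein, 0.82 and 0.55. At 8 h PHO5 stood at -2.73 and -2.86 and PHM6 at -2.99 and -3.13, so 4 h was higher by 3.85 and 3.74. None of the 4 h and 8 h values of these genes overlapped. How many of all genes share this was not counted, and 43.1% of those tested differed between these times. The 4 h call of PHO12 was lost without the first array (adjusted p = 0.0662, with 0.00283 to 0.0662 over its alternatives). PHO5, PHO11 and PHO12 are close copies and may share signal.

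The carriers through which arsenate can enter moved unequally. PHO89, the sodium-coupled phosphate carrier, had 0.97 and 0.89 (mean 0.93, adjusted p = 0.000339) and PHO84, the high-affinity proton-coupled carrier, had 0.35 and 0.31 (mean 0.33, adjusted p = 0.0212). The call of PHO84 was lost when either 4 h array was left out (adjusted p = 0.0942 without the first and 0.0756 without the second, with 0.00935 to 0.0942 over all alternatives), and that of PHO89 was kept. The low-affinity carrier PHO87 had -0.21 and -0.30, a call that was lost in 6 alternatives (adjusted p = 0.232 as deposited, with 0.0179 to 0.232 over them), and PHO90 (-0.04 and -0.05) and PHO91 (0.02 and -0.11) did not pass. PHO89 works with sodium, and the part of the sodium chloride given to the controls in this ratio was not tested. At high phosphate PHO84 read -0.07 and -0.05, and PHO89 0.14 and 0.09.

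The polyphosphate polymerase subunits VTC1, VTC3 and VTC4 were higher by 0.26, 0.35 and 0.25, VTC5 fell by 0.29, and VTC2 had 0.03 and 0.01. GDE1, a glycerophosphocholine phosphodiesterase, rose by 0.41 and PHO8, the vacuolar phosphatase, by 0.29, while the polyphosphatase PPN1 fell by 0.33. These changes were small: the calls of VTC1, VTC4, VTC5, PHO8 and PPN1 were lost without either 4 h array, of VTC3 without the first and of GDE1 without the second (highest adjusted p over the alternatives of each 0.0594 to 0.195). Of the feedback genes, the kinase inhibitor PHO81 (-0.02 and -0.12) and SPL2, which restrains low-affinity uptake (-0.06 and -0.15), both missed the threshold. PHM7, the third lower member beside VTC5 and PPN1, had -1.95 and -0.75 (mean -1.35, adjusted p = 0.00602), and the nucleotidase PHM8 read -2.12 on the first array alone. Of the 21 members, 19 were higher at 4 h than at 8 h, against 16.5% of all genes, and 7 were higher and above both later times, against 4.42%. With the first or second 4 h array left out, 5 or 6 of the 21 were called higher.

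**Figure D3:**
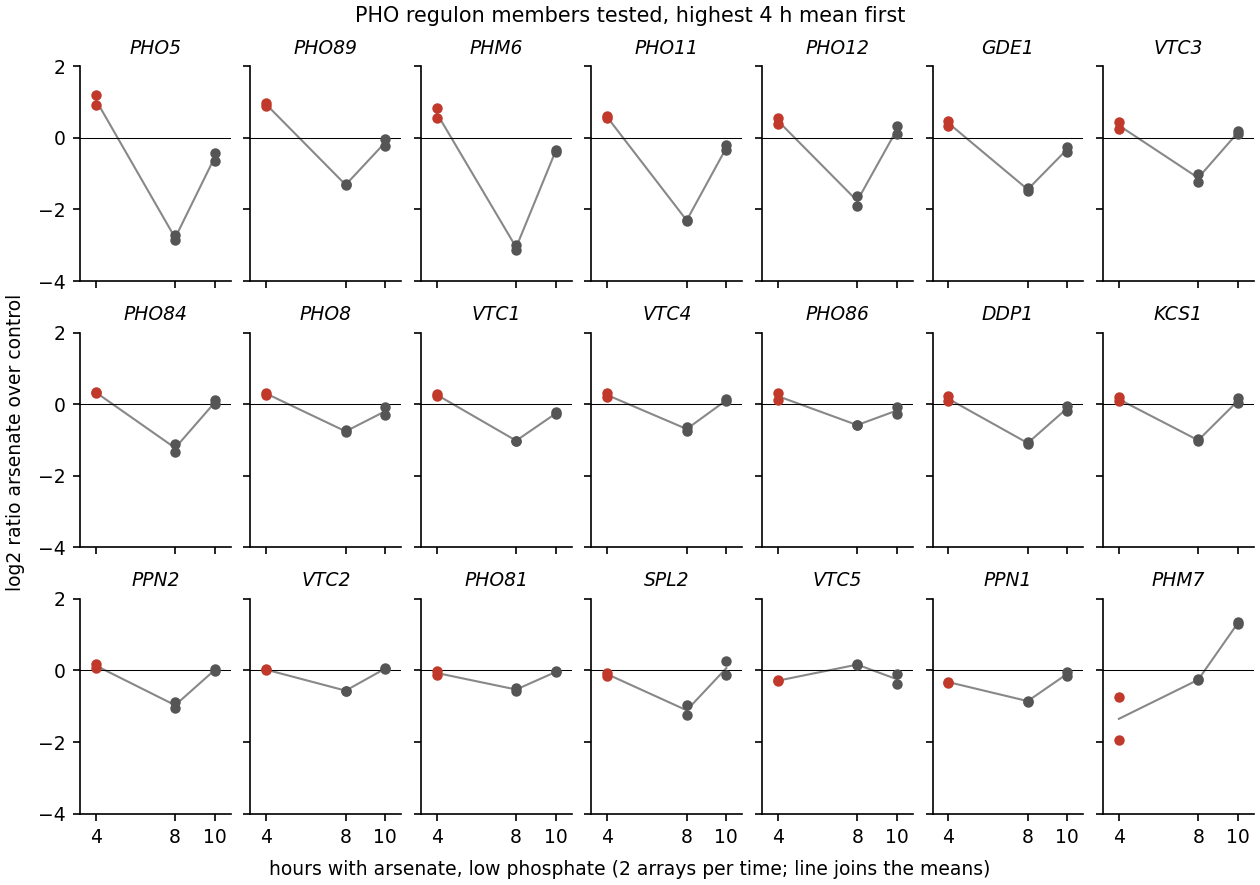
Log2 ratio of arsenate over control against hours for the 21 PHO regulon members tested, low phosphate, ordered by the 4 h mean, with 1 point per array (4 h in red) and a line through the means. In 19 panels 4 h is above 8 h; VTC5 and PHM7 run the other way.

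Genes of the signalling route to Pho4 gave few calls. Of 8 tested, 0 were higher and 2 lower (25%), against 18.3% and 17.6% of all genes tested. The list has too few members to be set apart from those shares. PHO2, the homeodomain partner of Pho4, was lower with -0.80 and -0.67, and PHO85, the kinase that inactivates Pho4, with -0.24 and -0.41. The call of PHO85 was lost without the second array (adjusted p = 0.14, with 0.00975 to 0.14 over its alternatives). PHO4 had -0.42 and 0.01 (adjusted p = 0.179) and its ratios lay on both sides of 0.

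Transcripts for ribosome assembly were higher at 4 h. Of 65 factors that assemble the small subunit 42 were higher, of 61 for the large subunit 43, and 0 of either were lower (medians 0.33 and 0.37). Those higher were 64.6% and 70.5%, against 18.3% of all genes tested, of which 17.6% were lower. The kinase RIO1 rose by 0.72, UTP23 by 0.70 and SAS10 by 0.60 for the small subunit, and the helicase DBP2 by 0.84 and the GTPases NOG1 by 0.72 and NOG2 by 0.64 for the large. At 8 h the medians were 0.97 and 1.00 and at 10 h -0.54 and -0.52. Of the small subunit factors 54 were lower at 4 h than at 8 h and of the large subunit factors 50, against 26.6% of all genes. In each list 60 were higher at 4 h than at 10 h, against 20.8% of all genes. With the first or second 4 h array left out, 22 or 26 small subunit factors and 26 or 25 large subunit factors were called.

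Of 136 proteins of the cytosolic ribosome tested, 62 were higher (45.6%) and 3 lower (2.21%), with a median of 0.25. The shares over all genes tested, also for the lists below, were 18.3% higher and 17.6% lower. At 8 h the median was 1.25, and 131 were lower at 4 h than at 8 h, against 26.6% of all genes. RPS9A had 0.80 and 0.81, RPS28B 0.89 and 0.66, RPS10A 0.55 and 0.76, and RPS18B 0.53 and 0.54. RPS18B stood at 1.96 on average at 8 h and 1.31 at 10 h. Paralogs of ribosomal proteins may share signal on spots. The count dropped to 28 and 22 with the first or second 4 h array left out. Of 41 translation factors 16 (39.0%) were higher and 1 lower, but 7 or 5 were higher with the first or second 4 h array left out, 8 as deposited and 6 with the 4 h arrays alone. The higher ones included SUI1, which selects the start codon, at 0.58, and ANB1, the hypoxic form of eIF5A, at 0.94. Subunits of RNA polymerase I (6 of 13 higher, 2 lower) and III (5 of 13 higher, 1 lower, with 3 or 2 higher when the first or second 4 h array was left out) included RPA12 at 0.50 and RPC31 at 0.51. MAF1, the repressor of polymerase III, fell by 0.47.

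In the cell wall list 24 of 43 genes were higher (55.8%) and 0 lower, with a median of 0.32, against 18.3% higher and 17.6% lower over all genes tested. SED1, a major wall glycoprotein, had 1.11 and 0.93 (mean 1.02, adjusted p = 0.00031), and at 8 h -0.38 and -0.52. TIR4, a wall mannoprotein, rose by 0.77, the kinase-like KDX1 by 0.77, the wall-bound proteases YPS3 by 0.70 and YPS1 by 0.62, and the glucanase EXG1 by 0.65. KDX1 had 0.81 and 0.70 at 8 h, whereas 9 members, SED1, TIR4, YPS1, YPS3 and EXG1 among them, were above both later times, against 4.42% of all genes. With either 4 h array left out, 19 members were called higher and 1 lower.

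**Figure D4:**
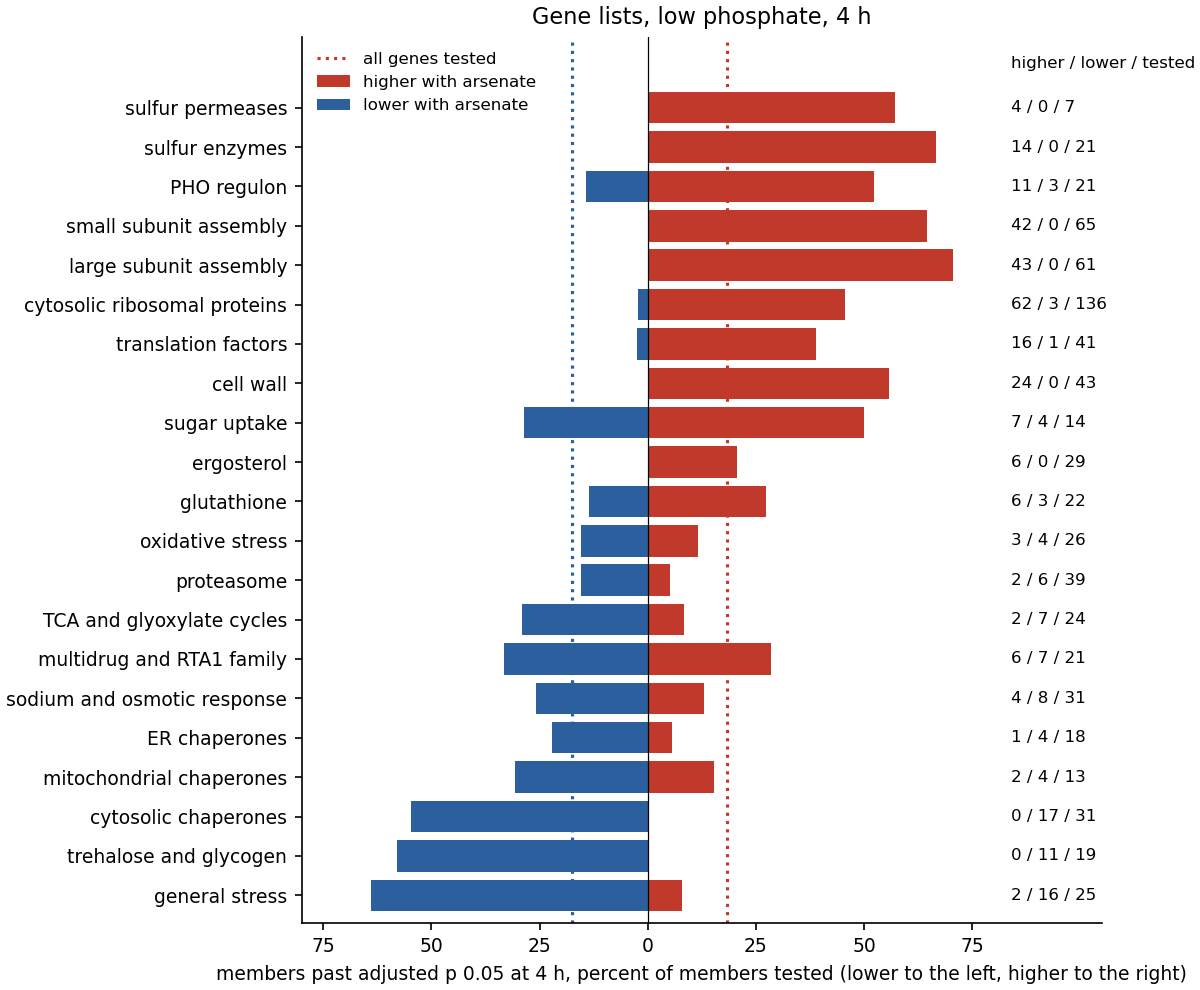
Share of tested members called higher (red, to the right) and lower (blue, to the left) with arsenate at 4 h, low phosphate, in 21 gene lists, with the numbers at the right edge. Dotted lines mark the shares over all genes tested, 18.3% higher and 17.6% lower; the sulfur, ribosome assembly and cell wall lists reach right of them, and the general stress, trehalose and glycogen, and cytosolic chaperone lists reach left.

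Outside these groups, the genes with the largest rises included SEO1, a permease of the allantoate family (2.08 and 1.76), BSC1 (1.75 and 1.60), the zinc finger gene RGM1 (1.68 and 1.55), the vitamin B6 synthesis gene SNZ1 (1.23 and 1.51) and the riboflavin transporter MCH5 (1.26 and 1.46). All were high on both arrays. The flavin monooxygenase FMO1 rose by 1.22, SRL3, linked to the start of the cell cycle, by 1.25, the putative aryl-alcohol dehydrogenase YPL088W by 1.34, and ECL1, known for longer chronological lifespan, by 1.18. Of the 25 genes with the highest means, CDD1, the cytidine deaminase (0.68 and 2.02), and HSP32, an Hsp31-family chaperone (0.31 and 1.85), were far apart on the arrays, as ARR3 and FRM2 were. HSP32 missed the threshold when the second array was left out (0.31), and it has near-identical relatives. Its call was also lost in other alternatives. They included the 4 h arrays alone (limma adjusted p = 0.092) and a robust form of the eBayes step (0.064).

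Among the largest falls, BDH2, a dehydrogenase of the alcohol family, had -2.73 and -3.24, PNS1, a choline transporter-like protein, -2.17 and -2.33, and GRE2, the methylglyoxal reductase, -2.04 and -1.87. GRE2 was above 0 later, with 0.78 and 0.74 at 8 h. The membrane protein YNL194C had the lowest mean of the genes tested and a wide spread, with -1.83 and -4.58 (mean -3.20 ± 1.94, SD, n = 2; limma adjusted p = 0.0048). RRI1, the protease subunit of the COP9 signalosome, was also far apart, at -0.56 and -2.55. Its call was lost with the 4 h arrays alone (limma adjusted p = 0.0731) and with a robust form of the eBayes step (0.0537). ZPR1, which helps fold elongation factor eEF1A, had -1.73 and -1.85, and 0.82 and 1.06 at 8 h.

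The arginine catabolic pair turned round between 4 h and 8 h. CAR1, the arginase, had -1.55 on both arrays at 4 h and 1.49 and 1.54 at 8 h, and CAR2, the ornithine transaminase, had -1.89 and -2.09 at 4 h and 0.22 and 0.39 at 8 h. Both genes were lower on each 4 h array than on any later one. Lipid and drug transporters moved both ways: RSB1, an exporter of sphingoid bases, fell by 1.47 and the transporter PDR15 by 1.42, against YOR1, another drug pump, which rose by 0.75. Over that list of 21 genes, 6 were higher (28.6%) and 7 lower (33.3%), against 18.3% and 17.6% of all genes tested.

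Against the later times as a whole, 793 genes were higher (16.5%) and 1280 lower (26.6%) at 4 h than at 8 h, and 1000 higher (20.8%) and 1091 lower (22.7%) than at 10 h. The 8 h split rests on centring, which shifts it by 0.19: as deposited there were 1051 higher and 612 lower genes, 63.2% higher instead of 38.3%. Of the 846 genes lower with arsenate at 4 h, 282 (33.3%) were below both later times, and of the 880 higher ones 213 (24.2%) were above both.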

How the data were processed

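The deposited values are log2 ratios per spot, normalized by the authors; per the labels, spots with a flag value of 0 entered that normalization. The sources used here give no method, log base, ratio direction or genome build. Base 2 was taken without a statement, and Cy5 over Cy3 was taken from the dyes in the labels. Of 10807 spots in the low phosphate table, 9202 named 1 of 5598 genes, 5593 of them in the reference gene table, and 1605 named none and stayed out. Spots were averaged per gene and each array was centred on its gene median. Genes with a value on both 4 h arrays and on at least 1 array at 8 h and at 10 h were fitted with limma 3.58.1 in R 4.3.3 (lmFit, eBayes) over all 6 low phosphate arrays with a mean per time, 3 residual and 4.08 prior degrees of freedom, two-sided tests and Benjamini-Hochberg adjustment over 4814 genes at 0.05. SE is limma's, and SD is between arrays of a time. The fit was tested on simulated data.

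Genes were named as the 25 highest and 25 lowest called means, up to 6 largest means per list, and a fixed set of arsenic, phosphate, sulfur and stress genes; other members named in the text were chosen after their values were seen. The members and the 47 gene lists were chosen with earlier results of these data known. Replicate numbers in the labels were checked as pairs: deviations of same-numbered arrays from their time means correlated at 0.111 (4 h and 8 h), 0.136 (4 h and 10 h) and 0.206 (8 h and 10 h) across genes, so the numbers, which come from the titles, were taken as pairs in an alternative with the replicate number as a block. Over 17 alternatives the centring, spot rule, gene filter, fit and single arrays were varied, 1 of them, keeping only spots with a value on both 4 h arrays, chosen after seeing the data. Tables were handled with Python 3.11.15 and pandas 2.3.3.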

Additional observations from a re-analysis of the deposited data

Results flagged for a closer look

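Response at 4 h differed from that at 8 h for 2073 genes (43.1% of those tested) and from that at 10 h for 2091 genes (43.4%), each by a limma test of the difference. A reversal at 8 h was searched for among the 25 highest, the 25 lowest and the fixed set of genes only. Of those called at 4 h, 6 lay at least 2-fold in the opposite direction on both 8 h arrays. The differences of 4 h minus 8 h were 3.85 for PHO5, 3.74 for PHM6, 2.24 for PHO89 and 1.55 for PHO84, all of the PHO regulon, 2.22 for HSP32 and -3.06 for CAR1. PHO84 and HSP32 were the ones whose own 4 h call was lost when a 4 h array was left out.

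Spots without a gene name, which entered no test, also held large ratios. Of 1605 such spots, 193 had a value on both 4 h arrays. Of these, 28 (14.5%) changed at least 2-fold in 1 direction on both, 22 higher and 6 lower. For named genes it was 67 of 4826 (1.39%). The shares are not like for like, since a gene's value averages its spots and most unnamed spots lacked a value. The unnamed spots gave 42 of 342 (12.3%) at 8 h and 12 of 210 (5.71%) at 10 h by the same count. What these spots measure is not named in the tables used here.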

How the results depend on the processing

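No called mean of a named gene changed sign at 4 h under the 17 alternatives, but the balance of calls turned: 880 higher and 846 lower genes at 4 h became 725 and 738 with array weights and 889 and 925 for genes on at least 1 array of each time, and 793 higher and 1280 lower for 4 h minus 8 h became 1051 and 612 as deposited. The 4 h arrays alone give no difference between times. With values as deposited, 502 genes were lower at 4 h and 612 were lower at 4 h than at 8 h. The 4 h arrays alone, with 1 residual degree of freedom, gave 1042 genes (523 higher, 519 lower). Leaving out single arrays, where a lone 4 h array was assumed to vary like the others, gave 1017 to 1640 genes at 4 h (450 to 830 higher, 567 to 811 lower), 1183 to 1980 for 4 h minus 8 h (410 to 758 higher, 773 to 1226 lower) and 1502 to 1908 for 4 h minus 10 h. With the replicate block the numbers were 951 higher and 916 lower at 4 h, 856 and 1366 against 8 h and 1063 and 1193 against 10 h, and 8 named genes gained a call and 0 lost theirs. Of the named genes, 63 lost their call without the first 4 h array, 65 without the second, 58 with the 4 h arrays alone and 30 as deposited. Signal over background is unknown, so weak spots could not be judged.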

Other observations

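Gene groups not described above moved little or in both directions at 4 h. In the hexose transporter and sugar uptake list 7 of 14 genes tested were higher and 4 lower, and 15 of its 29 members were not tested. Over all genes tested 18.3% were higher and 17.6% lower. With genes on at least 1 array of each time, 8 were higher and 7 lower of 19, and the median went from 0.12 to -0.09. HXT2 rose by 0.73, HXT8 by 0.64, HXT4 by 0.48 and HXT6 by 0.47. HXT1, the low-affinity transporter, had -0.59 and -0.65 and was lower than at both later times. Sterol and fatty acid genes held 6 higher and 0 lower of 29, near the 18.3% of all genes, with CYB5 at 0.83, the desaturase OLE1 at 0.63 and ERG11 at 0.63. Histone genes held 4 higher and 0 lower of 10, among them HHT1 at 0.51, but 1 higher without the first 4 h array. Autophagy genes held 7 lower and 2 higher of 26, with the receptor ATG40 at -1.16 and -1.35. Of 24 genes of the tricarboxylic acid and glyoxylate cycles 7 were lower and 2 higher, with IDP2 at -0.49 and -1.52. Purine synthesis, at a median of 0.95 at 8 h, stood at 0.03 at 4 h, with 4 of 21 higher and 1 lower. RKI1, the ribose 5-phosphate isomerase of the pentose phosphate pathway, had 0.24 and 0.53 and missed the threshold (adjusted p = 0.0669).

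In the mating list BAR1, the alpha-factor protease, had -0.63 and -1.52 and FUS1, of cell fusion, -0.77 and -1.35. There 3 of 11 were lower and 1 higher, against 17.6% and 18.3% of all genes tested. The ammonium permease MEP1 had -1.03 and -0.55 among 19 nitrogen permeases and catabolic genes, of which 4 were higher and 2 lower. Oxidative stress genes held 3 higher (11.5%) and 4 lower (15.4%) of 26, below the shares of all genes, and PRX1, the mitochondrial peroxiredoxin, fell by 0.85. Of 11 genes often used as references, FBA1 rose by 0.33, TFC1 fell by 0.37 and TAF10 by 0.28, and ACT1 had -0.06 and -0.15 (adjusted p = 0.436). The calls of FBA1 (without the first 4 h array), TAF10 (without the second) and TFC1 (without either) were lost (highest adjusted p over their alternatives 0.0605, 0.245 and 0.0856).

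The other lists held calls mostly in both directions, to be set beside 18.3% higher and 17.6% lower over all genes tested. Of 71 mitochondrial ribosomal proteins 11 were higher (15.5%), such as MRPS16 at 0.68, and 10 lower (14.1%), such as RSM10 at -0.75, both below the shares of all genes. Of 64 amino acid synthesis genes 8 were higher (12.5%) and 7 lower (10.9%). Against 8 h, 37 were lower at 4 h, beside 26.6% of all genes, among them ARG3, the ornithine carbamoyltransferase, with -0.44 and -0.47. Respiratory chain genes held 6 higher and 3 lower of 35, with the internal NADH dehydrogenase NDI1 at -0.59, and glycolysis 5 higher and 4 lower of 24; with the first or second 4 h array left out, 2 or 3 respiratory and 0 or 1 glycolytic genes were higher. Cell cycle genes held 7 higher and 2 lower of 29, with the cyclins CLB2 at 0.68 (0.45 and no longer called without the second 4 h array) and CLN3 at 0.52. Of 25 iron genes 4 were higher, with the wall mannoprotein FIT2 at 0.73, and 1 lower. Zinc genes held 3 higher and 2 lower of 13, folate and one-carbon genes 4 higher and 2 lower of 15, tubulin and actin folding genes 4 higher and 1 lower of 22, and DNA damage genes 1 higher and 2 lower of 13.

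Several of these counts dropped when a 4 h array was left out. Without the first or second array, 5 or 4 sugar uptake genes, 3 of the sterol and fatty acid genes either way, 3 or 4 cell cycle genes, 2 or 1 purine synthesis genes, 3 or 1 nitrogen genes and 3 or 2 iron genes were higher. In both directions, 4 higher and 5 lower or 4 higher and 3 lower amino acid synthesis genes and 8 higher and 10 lower or 4 higher and 6 lower mitochondrial ribosomal proteins were left. For the tricarboxylic acid and glyoxylate cycles 4 were lower either way. Autophagy genes held 7 higher and 5 lower without the first array, so the direction with more calls turned there, and 1 higher and 7 lower without the second.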
